A study of Mus musculus with 8 samples.

Results

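The miR-15 and miR-16 family was followed in mouse bone marrow-derived macrophages through 10 mature miRNAs out of the 1907 listed for each library. These are the 5p and 3p arms of miR-15a, miR-15b and miR-322, and the 5p arm of miR-195a. The others are the 5p arm and both 3p arms of miR-16. All 10 were chosen by name and by no cut-off on measured values, though with earlier results of these data known. A 5p or 3p arm is the mature strand cut from the left or right side of a precursor hairpin. Small RNA was sequenced from wild-type macrophages stimulated with LPS for 3 h at 100 ng/ml (3 libraries) and from unstimulated macrophages (3 libraries). LPS is a bacterial cell wall component that is sensed by Toll-like receptor 4. All cells came from mice labelled as 8 to 12 weeks of age and were grown for 6 days from marrow precursors in L929 supernatant, a source of macrophage colony-stimulating factor. Whether the replicates of a group are separate mice or cultures is not stated in the labels. The p-values below therefore rest on the spread among these libraries, which could be technical. The 2 chromosome conformation samples of the series were not analysed here.

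A miRNA guides the silencing complex to messenger RNAs that pair with its seed, bases 2 to 8 of the mature strand, so miRNAs with equal seeds share many targets. The miR-15/16 family is known for lowering cell cycle and survival proteins such as cyclin D1, cyclin E1 and Bcl2. Loss of the MIR15A/MIR16-1 locus together with its host DLEU2 is a common lesion of human chronic lymphocytic leukaemia. In human cells miR-424, the counterpart of mouse miR-322, promotes monocyte differentiation.

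The mature sequences show which arms could act on the same targets and which arms tell the loci apart. They are RNA, written 5′ to 3′, from RefSeq on GRCm38.p6, and all 10 members matched an entry by name. Capitals mark the seed. The 5 members that carry the seed of miR-15a-5p were the 5p arms:
mmu-miR-15a-5p: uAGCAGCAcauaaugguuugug
mmu-miR-15b-5p: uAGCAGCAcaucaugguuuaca
mmu-miR-16-5p: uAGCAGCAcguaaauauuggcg
mmu-miR-195a-5p: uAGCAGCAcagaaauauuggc
mmu-miR-322-5p: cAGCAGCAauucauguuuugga
The strongest resemblance among them was between miR-16-5p and miR-195a-5p, which differed at 2 of 21 aligned bases, both outside the seed. miR-15a-5p and miR-15b-5p differed at 4 of 22 bases, the first at base 12. The 3p arms have other seeds and differ between loci:
mmu-miR-15a-3p: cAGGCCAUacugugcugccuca
mmu-miR-15b-3p: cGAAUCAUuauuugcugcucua
mmu-miR-16-1-3p: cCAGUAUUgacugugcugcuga
mmu-miR-16-2-3p: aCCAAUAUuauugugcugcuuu
mmu-miR-322-3p: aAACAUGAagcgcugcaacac
Aligned base by base from the 5′ end, miR-15a-3p and miR-15b-3p differed at 10 of 22 bases, and so did miR-16-1-3p and miR-16-2-3p.

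The family comes from 4 places in the genome (coordinates on GRCm38.p6). Mir15a (chromosome 14, 61632027 to 61632110, minus strand) and Mir16-1 (61631880 to 61631972, minus strand) lie inside the span of the long noncoding RNA gene Dleu2 (61602836 to 61682373). Mir15b (chromosome 3, 69009772 to 69009835, plus strand) and Mir16-2 (69009902 to 69009996, plus strand) lie inside the span of Smc4 (69004738 to 69034623), which encodes a condensin subunit that compacts mitotic chromosomes. Mir195a lies on chromosome 11 (70235042 to 70235135, plus strand), next to Mir497 and inside no other gene span of the table. Mir322 lies on the X chromosome (53054255 to 53054349, minus strand) with Mir503 inside the span of the long noncoding RNA C430049B03Rik (53053112 to 53057190). The table gives spans only, so it was not determined whether a hairpin is exonic or intronic. The hairpins of both miR-16 copies are shown because their 5p arms are identical and only the 3p arms assign a read to a locus. Capitals mark the mature arms, 5p first and 3p second:
Mir16-1: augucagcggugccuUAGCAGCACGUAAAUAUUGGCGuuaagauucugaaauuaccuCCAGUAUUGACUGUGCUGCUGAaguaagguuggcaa
Mir16-2: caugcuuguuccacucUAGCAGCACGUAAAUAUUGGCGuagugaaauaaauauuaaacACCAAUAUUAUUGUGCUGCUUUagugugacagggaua
Reads of miR-16-5p therefore fit both loci. How the submitters counted such reads is not given in the sources used here, so the level of miR-16-5p is uncertain.

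Library totals ranged from 3280688 to 4105395 miRNA counts with LPS and from 3912296 to 4312555 without. All 10 members were among the 357 miRNAs that passed the filter on low counts. The macrophage and myeloid markers summed to between 1799322 and 2228549 counts with LPS and between 2017159 and 2306655 without. They were 8 miRNAs, of which miR-142a-3p was listed at 0 in all 6 libraries. Sums of this size rest largely on miR-22-3p and miR-21a-5p, which ranked 1 and 2 by mean level among the 357 miRNAs. Whether these strands are limited to macrophages was not tested, so the sums do not measure how pure the cultures were. Erythroid markers, of interest because red blood cells are rich in miR-16, summed to 2 to 5 counts with LPS and 0 to 2 without, and 5 of these 7 miRNAs had no count at all. Stromal and muscle markers summed to 4 to 9 counts with LPS and 1 to 9 without, with 5 of 8 at 0. The lymphocyte list (miR-150-5p, miR-150-3p and miR-205-5p, the last better known from epithelium and at 0) summed to 245 to 294 counts with LPS and 237 to 294 without. Since miR-142a-3p, an abundant strand in blood cells, was also listed at 0, a 0 in these tables does not show that a miRNA was absent.

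The family was present at moderate levels in both conditions, and its abundant strands were the 5p arms of miR-15a, miR-322 and miR-15b. Levels are CPM, that is, counts made comparable between libraries with TMM factors. In RNA from whole cultures, fewer cells of a type and less RNA per cell cannot be told apart. miR-15a-5p stood at 2108, 1618 and 1777 CPM in the LPS libraries, against 1713, 1839 and 1874 CPM in the unstimulated libraries. miR-322-5p stood at 1677, 1463 and 1408 CPM with LPS, against 1521, 1607 and 1586 CPM without. miR-15b-5p stood at 783.0, 782.5 and 916.5 CPM with LPS, against 818.1, 885.5 and 888.8 CPM without. The LPS and unstimulated ranges of these arms overlapped, and LPS replicate 1 held the highest value of miR-15a-5p and of miR-322-5p. By mean level over the 6 libraries they ranked 47, 50 and 60 among the 357 miRNAs tested.

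**Figure D1:**
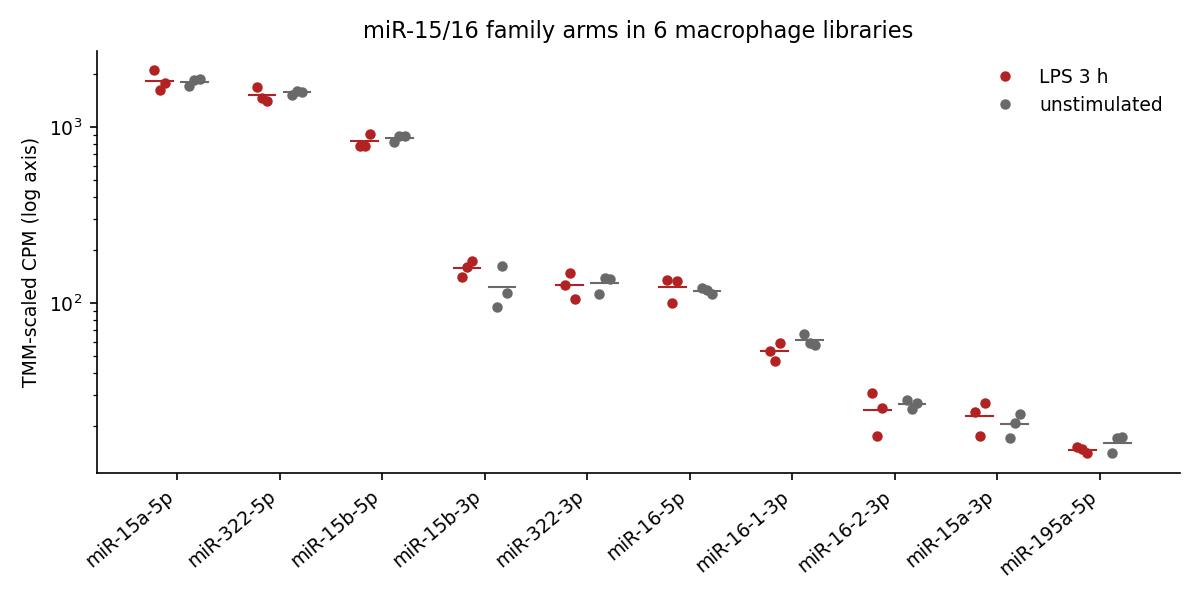
TMM-scaled CPM (log axis) of the 10 family arms, ordered by mean level, with a point per library and a bar at each group mean; LPS libraries are left of the unstimulated ones. The 5p arms of miR-15a, miR-322 and miR-15b lie above 782 CPM in every library, the other arms below 174 CPM, and within each arm the groups overlap.

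The other members were scarcer. miR-16-5p, often the family's best known strand, was counted at 134.6, 100.5 and 133.5 CPM with LPS, against 121.3, 118.2 and 112.8 CPM without. That was 6.02% to 7.51% of the count of miR-15a-5p, its neighbour at the Dleu2 locus, in the same library. miR-195a-5p was the scarcest member at 15.2, 14.7 and 14.0 CPM with LPS, against 14.0, 17.0 and 17.2 CPM without, from 48 to 71 counts per library. It differs from miR-16-5p by so few bases that reads could be exchanged between them in counting. The order of the members by mean level was miR-15a-5p, miR-322-5p, miR-15b-5p, miR-15b-3p, miR-322-3p, miR-16-5p, miR-16-1-3p, miR-16-2-3p, miR-15a-3p and miR-195a-5p. Of the 9 pairs of neighbours in that order, 6 kept it in 6 of 6 libraries (two-sided exact sign-flip permutation, adjusted p = 0.0469 over the 9 pairs, from 0.0312, the smallest p that 6 libraries can give). The exceptions were miR-15b-3p over miR-322-3p (adjusted p = 0.531), miR-322-3p over miR-16-5p (adjusted p = 0.531) and miR-16-2-3p over miR-15a-3p (adjusted p = 0.161, exact permutation in each case). Even the narrowest ordered step, miR-15a-5p over miR-322-5p, was 1.18-fold on average (log2 ratio 0.24 ± 0.08, SD, n = 6 libraries). The order was taken from the same 6 libraries, LPS and unstimulated together, so these p-values give it no independent support. Ligation preferences of a library kit act alike in all libraries and were not tested, so the order describes counts.

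Counts of miRNAs with the family seed came almost wholly from 3 strands in both conditions. The proportions are given as a description and were not tested between conditions. miR-15a-5p supplied 42.2% ± 2.06 of them with LPS and 41.1% ± 0.465 without (SD, n = 3 per group). miR-322-5p supplied 35.0% ± 1.85 with LPS and 35.7% ± 0.477 without, and miR-15b-5p 19.2% ± 2.49 and 19.6% ± 0.163. miR-16-5p supplied 2.82% ± 0.305 with LPS and 2.67% ± 0.193 without, while miR-497a-5p and miR-195a-5p each supplied less than 1% in every library. All these shares depend on the count of miR-16-5p, which is uncertain because its reads fit both loci and their handling is not given. Of the 10 miRNAs in the tables with this seed, the other 4 (miR-195b, miR-6342, miR-6353 and miR-6419) had 0 counts in all 6 libraries. The shares of miR-15a-5p and miR-15b-5p deviated most in LPS replicate 1, at 44.5% and 16.5%.

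**Figure D2:**
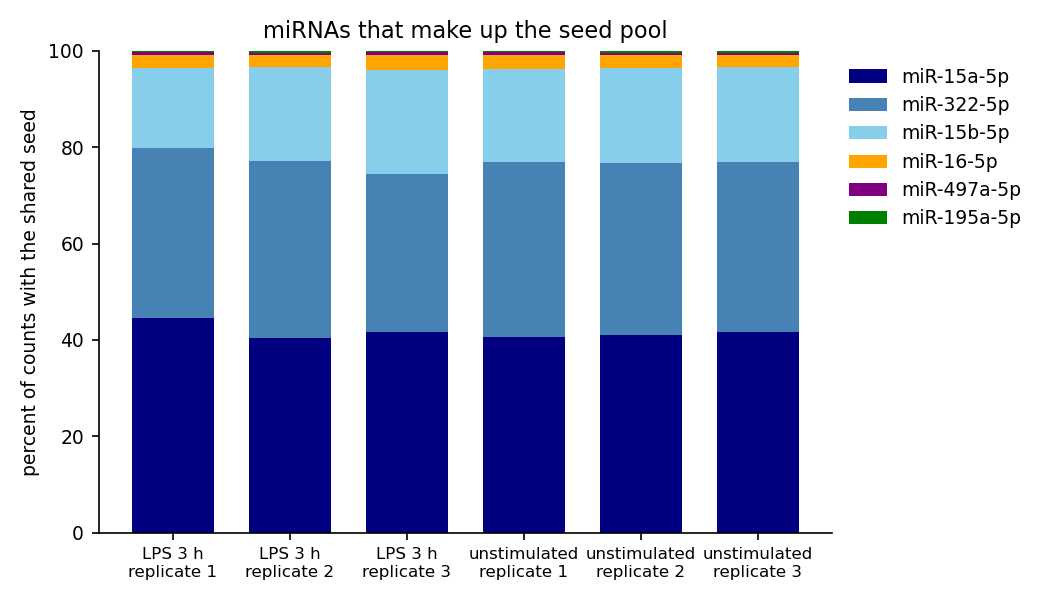
Percent of all counts with the seed of miR-15a-5p that each miRNA held, stacked for each of the 3 LPS and 3 unstimulated libraries. miR-15a-5p held 40.5% to 44.5%, miR-322-5p 32.9% to 36.6% and miR-15b-5p 16.5% to 21.4% in every library. The count of miR-16-5p is uncertain, and every share depends on it.

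As a share of all miRNA counts, the 5 members with the family seed held 0.454%, 0.407% and 0.408% in the LPS libraries, against 0.409%, 0.470% and 0.461% in the unstimulated libraries. Wilson 95% intervals of these shares reached at most 0.00728 percentage points to either side and cover counting error only. The means were 0.423% ± 0.0272 with LPS and 0.447% ± 0.0329 without (SD, n = 3 per group), and the ranges of the groups overlapped (two-sided exact permutation p = 0.2, where 0.1 is the smallest p possible). All 10 members together held 0.461% ± 0.0257 with LPS and 0.484% ± 0.0384 without (two-sided exact permutation p = 0.4, n = 3 per group).

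The comparison of LPS with unstimulated macrophages asked whether any family arm changed within 3 h, and none passed the test. Of the 10 members, 0 had an adjusted p below 0.05 by the edgeR quasi-likelihood test (Benjamini-Hochberg), 0 had an unadjusted p below 0.05, and DESeq2 and limma-voom also called 0. Among all 357 miRNAs edgeR called 5.04%, and 11.8% had an unadjusted p below 0.05. No member had groups that did not overlap in CPM, against 16.0% of all miRNAs tested. The median log2 fold change was -0.04 over the members and 0.01 over all miRNAs tested. The members' median size of change regardless of direction was 0.10, against 0.14 over all tested. Their median SE was smaller too, at 0.15 against 0.20, and whether the sizes differ beyond this was not tested. Log2 fold changes are LPS over unstimulated.

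The data bound the change of the 3 abundant 5p arms most closely. For miR-15a-5p the log2 fold change came to 0.02 (SE 0.12, 95% interval -0.25 to 0.29), miR-322-5p of -0.05 (SE 0.11, -0.29 to 0.19) and miR-15b-5p of -0.06 (SE 0.11, -0.31 to 0.19). These intervals reach from 0.805-fold to 1.22-fold. The sign for miR-15a-5p turned to -0.04 when libraries were scaled by upper-quartile factors or by totals. For miR-16-5p the log2 fold change came to 0.06 (SE 0.14, -0.26 to 0.38) and miR-195a-5p of -0.14 (SE 0.19, -0.56 to 0.29). Their wider intervals still lie within 0.677-fold to 1.31-fold. A p that misses the threshold does not show that the levels were equal, and smaller changes were not detectable with these libraries.

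The 3p arms, here the less abundant strands of their hairpins, had lower counts and wider intervals. miR-15b-3p had the largest difference of the family, with 140.6, 159.3 and 173.6 CPM in the LPS libraries, against 94.7, 162.9 and 114.2 CPM in the unstimulated libraries. Unstimulated replicate 2 lay inside the LPS range and the other 2 unstimulated libraries below it. The log2 fold change of miR-15b-3p was 0.35 (SE 0.19, 95% interval -0.07 to 0.77, edgeR adjusted p = 0.622), and leaving out 1 library moved it between 0.14 (adjusted p = 0.892, without unstimulated replicate 1) and 0.60 (adjusted p = 0.0933, without unstimulated replicate 2). miR-15a-3p had 24.1, 17.7 and 26.9 CPM with LPS, against 17.1, 20.9 and 23.3 CPM without, and a log2 fold change of 0.16 (SE 0.22), which was 0.0017 without unstimulated replicate 1 and 0.33 without LPS replicate 2. LPS replicate 2 lay among the unstimulated libraries, and the groups overlapped. miR-16-1-3p had 53.5, 46.6 and 59.4 CPM with LPS, against 66.5, 59.5 and 57.7 CPM without, and a log2 fold change of -0.20 (SE 0.15). For this arm 2 LPS libraries lay below all unstimulated ones. miR-16-2-3p had 30.7, 17.7 and 25.4 CPM with LPS, against 28.0, 25.0 and 27.2 CPM without, and a log2 fold change of -0.13 (SE 0.22). It turned to 0.07 without LPS replicate 2, the lowest library. miR-322-3p had 125.7, 147.1 and 105.3 CPM with LPS, against 112.8, 138.1 and 136.3 CPM without, with a log2 fold change of -0.03 (SE 0.15).

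**Figure D3:**
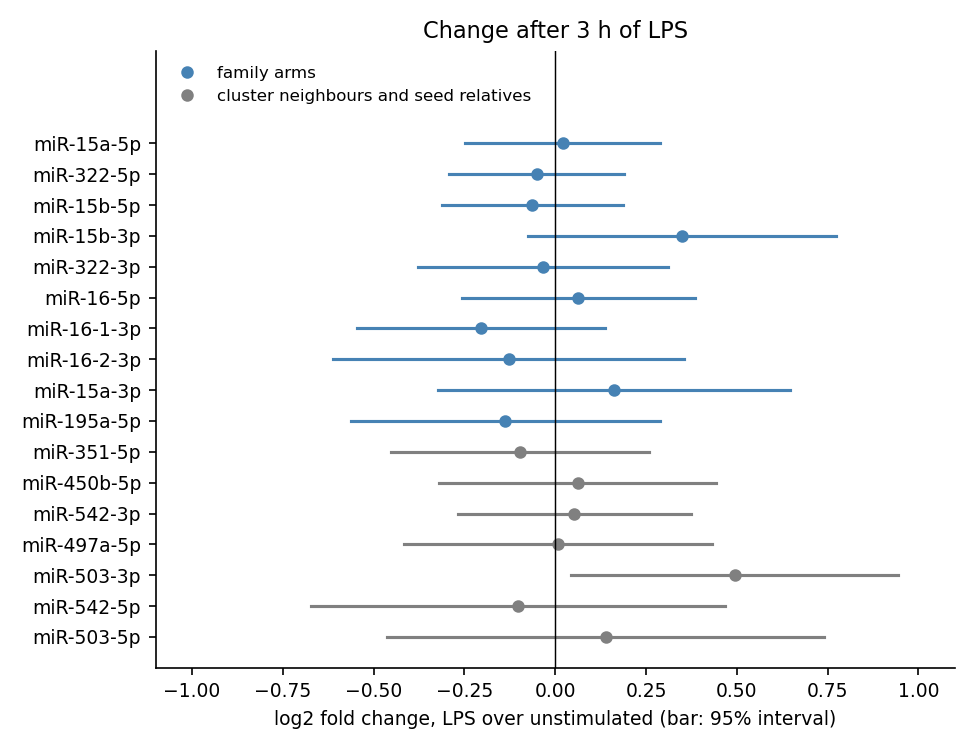
Log2 fold change, LPS over unstimulated, from edgeR for the 10 family arms (blue) and the 7 tested cluster neighbours and seed relatives (grey), with 95% intervals as bars. All 10 family intervals cross 0, and the widest values they reach are -0.61 and 0.77.

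The loci were then compared by the arms that only one of them makes. The Dleu2 locus was counted higher than the Smc4 locus for the 5p arm of miR-15 and the 3p arm of miR-16, and lower for the 3p arm of miR-15. miR-15b-5p was at a log2 ratio to miR-15a-5p of -1.43, -1.05 and -0.95 in the LPS libraries, against -1.07, -1.05 and -1.08 in the unstimulated libraries. miR-15a-5p was thus 1.94- to 2.69-fold above miR-15b-5p. miR-16-2-3p was at a log2 ratio to miR-16-1-3p of -0.80, -1.39 and -1.22 with LPS, against -1.24, -1.25 and -1.08 without. miR-16-1-3p was 1.74- to 2.63-fold higher, a range close to that for the 5p arms of miR-15. Within libraries the 2 ratios could part: LPS replicate 1 had the most negative 5p ratio and the least negative miR-16 3p ratio. miR-15b-3p was at a log2 ratio to miR-15a-3p of 2.54, 3.17 and 2.68 with LPS, against 2.46, 2.96 and 2.29 without. This reverses the order of the loci, with miR-15b-3p 4.89- to 8.97-fold above miR-15a-3p. Each of the 3 directions held in 6 of 6 libraries (two-sided exact sign-flip permutation, adjusted p = 0.0312 over the 3 ratios, the smallest that 6 libraries allow). The arms compared differ in sequence, and ligation preferences were not tested here either, so these ratios describe counts.

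**Figure D4:**
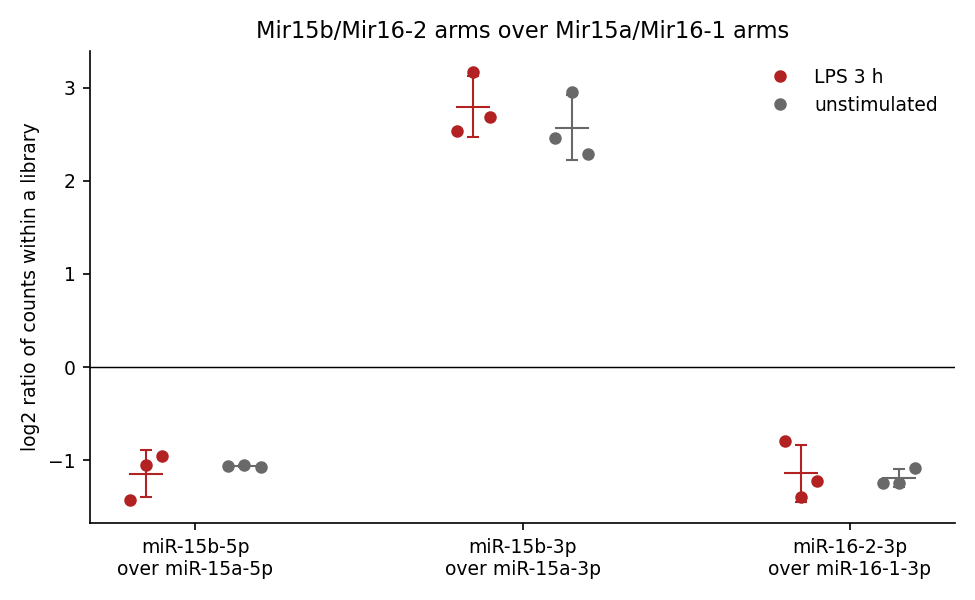
Log2 ratio of counts within a library for the 3 pairs of arms that separate the loci, Mir15b/Mir16-2 over Mir15a/Mir16-1, with points for libraries and bars for mean ± SD of the 3 LPS and 3 unstimulated libraries. The ratios of miR-15 5p and miR-16 3p arms lie near -1 and those of miR-15 3p arms between 2.29 and 3.17, with LPS and unstimulated libraries overlapping in each.

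The balance of the loci did not pass a test for a change with LPS. The ratio of miR-15b-5p to miR-15a-5p averaged -1.14 ± 0.25 with LPS and -1.07 ± 0.01 without (SD, n = 3 per group, two-sided exact permutation p = 1.0). That of miR-16-2-3p to miR-16-1-3p averaged -1.14 ± 0.31 with LPS and -1.19 ± 0.09 without (exact permutation p = 0.8), and that of miR-15b-3p to miR-15a-3p 2.80 ± 0.33 with LPS and 2.57 ± 0.35 without (exact permutation p = 0.5). Adjusted over the 3 ratios all p-values were 1.0, and 3 against 3 libraries cannot go below 0.1 unadjusted. The arms specific to a locus, 3 from each, leave out the shared miR-16-5p. Of their summed counts the Smc4 locus gave 34.7% ± 3.79 with LPS and 34.9% ± 0.828 without. Most of these counts were of miR-15a-5p and miR-15b-5p, so this share largely repeats the ratio of the 5p arms. The larger LPS spread of the 5p ratio came with LPS replicate 1, without which the difference of the means was 0.06, against -0.08 with all libraries.

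The hairpins of the family differed in how much of their 3p arm was counted. The 3p arm made up 1.23% ± 0.225 of the miR-15a counts with LPS and 1.11% ± 0.120 without (SD, n = 3 per group). For miR-15b it made up 15.2%, 16.9% and 15.9% in the LPS libraries, against 10.4%, 15.5% and 11.4% in the unstimulated libraries. The LPS values of miR-15b all exceeded 15%, and unstimulated replicate 2 reached into their range. The ratio of 3p to 5p was 13.8-fold higher in miR-15b than in miR-15a on average, which follows from the locus ratios above and is given as a description. For miR-322 the 3p arm made up 7.69% ± 1.25 with LPS and 7.58% ± 0.585 without. miR-195a-3p had 0 to 7 counts per library and was not tested.

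Limma found no change in arm balance for the 3 hairpins it could test, where 12.0% of 100 hairpins were called. The log2 difference between arms, LPS minus unstimulated, was 0.44 for miR-15b (SE 0.20, limma adjusted p = 0.221), 0.14 for miR-15a (SE 0.22, adjusted p = 0.837) and 0.01 for miR-322 (SE 0.18, adjusted p = 0.966). miR-15b had an unadjusted p of 0.0376 by limma, as 17.0% of hairpins had an unadjusted p below 0.05. Without unstimulated replicate 2 it passed, at 0.64 (limma adjusted p = 0.0441), and without unstimulated replicate 1 it was 0.31 (limma adjusted p = 0.638).

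miR-16 was read as its shared 5p arm against both 3p arms, a grouping added after the values were seen. The 3p arms made up 38.49%, 38.99% and 38.84% of these counts in the LPS libraries, against 43.78%, 41.68% and 42.94% in the unstimulated libraries. All LPS libraries lay below all unstimulated ones, as arm shares did not overlap in 19.0% of the 100 hairpins. The means of 38.8% ± 0.253 and 42.8% ± 1.06 differed by -4.03 percentage points (two-sided exact permutation p = 0.1, the smallest possible with n = 3 per group). As the grouping followed the values, this p gives the difference no independent support. The 3p share of miR-16 was high beside other hairpins, where the less abundant arm had a median share of 6.83% and an upper quartile of 24.1%. It rests on the uncertain count of miR-16-5p, whose part in these values was not tested.

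**Figure D5:**
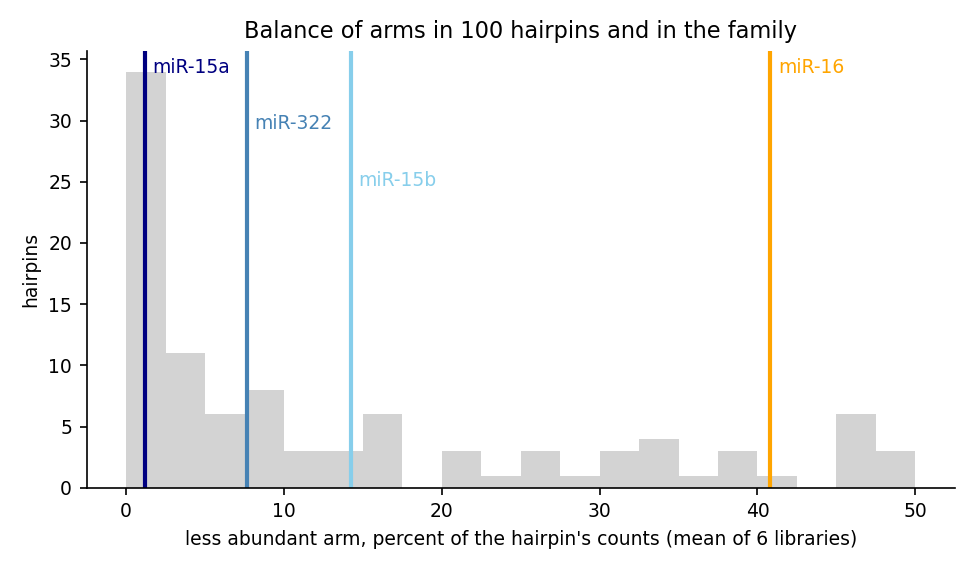
Histogram of the share of the less abundant arm (percent of a hairpin's counts, mean of 6 libraries) in 100 hairpins with both arms tested, with lines at the 3p share of miR-15a, miR-322, miR-15b and miR-16. The lines fall at 1.17%, 7.63%, 14.2% and 40.8%.

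Neighbours of the family in its clusters and other miRNAs with its seed formed a list of 19, of which 7 passed the filter. edgeR, DESeq2 and limma-voom each called 0 of the 7, and 1 had an unadjusted p below 0.05 by edgeR. That was miR-503-3p, from the hairpin next to Mir322, at 11.7, 11.5 and 12.4 CPM in the LPS libraries, against 8.07, 8.98 and 8.25 CPM in the unstimulated libraries. Its groups did not overlap, as in 16.0% of all miRNAs tested, and its log2 fold change was 0.49 (SE 0.20, edgeR adjusted p = 0.33). Its counts were 37 to 49 with LPS and 34 to 37 without. miR-503-5p, whose seed differs from the family seed in its last base, had 5.17 ± 0.934 CPM with LPS and 4.65 ± 0.673 CPM without (SD, n = 3 per group):
mmu-miR-503-5p: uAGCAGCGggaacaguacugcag
mmu-miR-497a-5p: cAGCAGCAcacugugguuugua
miR-497a-5p, which carries the family seed and lies beside Mir195a, had 23.3 ± 2.80 CPM with LPS and 23.1 ± 3.00 CPM without. miR-195a-5p was counted at 55.0% to 73.2% of miR-497a-5p within a library. The most abundant neighbour was miR-351-5p of the X-linked cluster, above miR-322-5p in mean level, with 2044 ± 416.7 CPM with LPS and 2186 ± 306.8 CPM without (log2 fold change -0.10, SE 0.16). miR-450b-5p, miR-542-3p and miR-542-5p had log2 fold changes of 0.06, 0.05 and -0.10. Of the 12 untested miRNAs, 7 had no count in any library and none exceeded 15 counts.

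The miRNAs whose levels followed miR-15a-5p and miR-15b-5p most closely over the 6 libraries were named by their correlation of log2 CPM among 245 other miRNAs with a mean of at least 10 CPM. For miR-15a-5p they were miR-22-3p (Pearson r = 0.974), miR-142a-5p (0.962) and miR-29c-3p (0.922). For miR-15b-5p they were miR-140-3p (r = 0.888), miR-324-5p (0.836) and miR-25-3p (0.817). These values describe the same 6 libraries and share their depth and scaling. As the highest of many correlations over few libraries, they are a description only.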

How the data were processed

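The authors deposited raw counts as whole numbers, with no normalization visible in them. The submitters' processing notes list the assembly GRCm38.p1 (mm10), SAMtools 0.1.19 and Novoalign. No source used here gives the counting tool, the annotation release or the treatment of reads that fit several hairpins. Total RNA went into TruSeq Small RNA libraries, per the labels' protocols.

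Counts were tested with edgeR 4.0.16 (quasi-likelihood test, TMM factors of 0.96 to 1.053, filterByExpr with a minimum count of 10) in R 4.3.3 on all miRNAs, with Benjamini-Hochberg adjustment over the 357 that passed and calls at an adjusted p below 0.05. The SE is the absolute log2 fold change over the square root of F. Arm balance was tested with limma 3.58.1 on log2 CPM differences (prior count 2, variance trend) over 100 hairpins. Ratios within a library used 0.5 added to each count and exact permutations (scipy 1.17.1). DESeq2 1.42.0, limma-voom, other scalings and filters, a replicate block and leaving out each library were alternatives, and the tests were tried on simulated data. Within groups, every pair of libraries differed by more than sampling noise (lowest chi-square over its degrees of freedom 62.3). All members were named, with the cluster and seed relatives, and the 3 miRNAs most correlated with miR-15a-5p and miR-15b-5p. Members, lists and comparisons were chosen with earlier results of these data known. Hairpin positions and sequences are from RefSeq on GRCm38.p6, a later patch of the submitters' assembly, in which 1623 of the 1907 miRNAs had a mature sequence.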

Additional observations from a re-analysis of the deposited data

How the results depend on the processing

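The family had 0 called members under all 14 alternatives to the edgeR test, while the number of all called miRNAs, 18 with all libraries, was 11 (without LPS replicate 3) to 18 when 1 library was left out and 13 to 26 under the other settings. Some log2 fold changes, none of them called, changed sign. That of miR-15a-5p was -0.043 with upper-quartile factors, -0.039 with library totals and -0.127 to 0.109 when 1 library was left out. In the same test without 1 library, miR-16-5p ranged from -0.044 to 0.197, miR-16-2-3p from -0.352 to 0.071, miR-322-5p from -0.164 to 0.047 and miR-322-3p from -0.163 to 0.128. The difference between arms ranged from -0.0078 to 0.223 for miR-15a, from -0.127 to 0.085 for miR-322 and from 0.31 to 0.64 for miR-15b. miR-15b-3p and miR-15a-3p kept their sign, at 0.14 to 0.60 and 0.0017 to 0.33. The causes were not tested. Hairpins with changed arm balance numbered 12, and 7 with no variance trend, 11 with a replicate block and 8 to 14 with 1 library left out. In the unstimulated libraries alone the ratio of miR-15b-3p to miR-322-3p was -0.089 on the log2 scale.

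With the replicate block edgeR called 17 miRNAs and no member (lowest member adjusted p = 0.41). An unadjusted p below 0.05 by edgeR was held by 1 member with the replicate block, 1 with no filter and 1 without unstimulated replicate 2. Same-numbered libraries did not deviate together in every pair (correlations of 0.02, 0.14 and -0.04). With 3 libraries per group these correlations cannot decide whether same-numbered libraries share an origin. No other scaling moved the median of all miRNAs by over 0.1. The scarcest members were miR-195a-5p with 48 to 71 counts per library, miR-15a-3p with 72 to 106 and miR-16-2-3p with 72 to 118.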

Other observations

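miR-16-5p is among 51 miRNAs of the tables whose mature sequence RefSeq places in more than 1 hairpin. Of these, 18 had a count in some library and 13 passed the filter, against 801 and 301 of 1572 miRNAs with a single hairpin. miR-92a-3p had the highest level of them, at 27448 ± 1497 CPM with LPS and 25538 ± 340.3 CPM without (SD, n = 3 per group). let-7f-5p came next at 1703 ± 122.2 CPM with LPS and 1808 ± 89.5 CPM without, followed by miR-16-5p at 122.9 ± 19.4 CPM with LPS and 117.4 ± 4.33 CPM without. miR-24-3p, the shared arm of Mir24-1 and Mir24-2, had 0 or 1 count per library, and miR-30c-5p had 4 to 9. These examples were chosen after their values were seen, and the part of counting in them was not tested. Among miRNAs past the filter with a mature sequence, the median level was 66.2 CPM for those with several hairpins and 40.7 CPM for those with 1.

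Within the Dleu2 locus the counts of the 3p arms of the 2 hairpins differed in the opposite sense to the counts of the 5p arms. The 5p side rests on the uncertain count of miR-16-5p, whose part in this contrast was not tested. miR-16-1-3p was counted at 221% to 264% of miR-15a-3p in the LPS libraries and at 248% to 389% in the unstimulated libraries, while miR-16-5p, which can come from either locus, was at 6.21% to 7.51% of miR-15a-5p with LPS and 6.02% to 7.08% without. Within the Smc4 locus miR-16-2-3p was at 11.1% to 21.8% of miR-15b-3p with LPS and 15.4% to 29.6% without.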
